A study of Homo sapiens with 36 samples.

Results

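HIVEP2, PDGFA and CD44 are 3 of the 57500 genes counted in THP-1 cells, a human monocytic leukaemia line, and were followed here across all 12 conditions of the experiment. They were chosen by the interaction of CO2 and LPS in the control cells. There, their response to carbon dioxide differed between cells with and without lipopolysaccharide (LPS). The control CO2 responses and interaction below are thus a description, and the question tested was whether both knockdown lines repeat the pattern. Cells carried a non-targeting hairpin (shNT), a hairpin against NR4A2 (shNR4A2) or a hairpin against NR4A3 (shNR4A3). All lines were made by lentiviral transduction, and each genotype is represented by 1 transduced line. Cells were kept in buffered medium at 5% or 10% CO2 for 4 h, and LPS at 2.5 µg/mL was present for the last 2 h or was left out. Each of the 12 conditions had 3 libraries of polyadenylated RNA. The cells without LPS are called the basal state.

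HIVEP2 encodes a large zinc finger protein that binds DNA sites like those bound by NF-kB. PDGFA encodes the A chain of platelet-derived growth factor, a secreted ligand for PDGF receptors that drives the growth and movement of mesenchymal cells and is released by activated monocytes and macrophages. CD44 is a cell surface receptor for hyaluronan, a matrix polysaccharide, and takes part in the adhesion and migration of leukocytes. LPS acts through TLR4 to activate NF-kB. NR4A2 and NR4A3 are orphan nuclear receptors that are induced early after such stimulation.

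In GRCh38, HIVEP2 lies on chromosome 6 at chr6:142751467-142945201 on the minus strand, PDGFA on chromosome 7 at chr7:497258-520296 on the minus strand, and CD44 on chromosome 11 at chr11:35138870-35232402 on the plus strand. The counted exons formed 11, 9 and 21 separate intervals, with summed lengths of 9774, 4151 and 10057 bases. The DNA next to the start sites of these genes is shown, from the RefSeq sequences of GRCh38.p14. The genes were chosen for the same interaction, so their like pattern is in part a result of that choice. Only bases outside annotated exons are printed, and every base of the 250 before the CD44 start fell in an exon of some transcript, so that window was searched but is not printed. The stretch for HIVEP2 is chr6:142945202-142945426 and that for PDGFA is chr7:519847-519959, both written 5′ to 3′ on the minus strand.
HIVEP2: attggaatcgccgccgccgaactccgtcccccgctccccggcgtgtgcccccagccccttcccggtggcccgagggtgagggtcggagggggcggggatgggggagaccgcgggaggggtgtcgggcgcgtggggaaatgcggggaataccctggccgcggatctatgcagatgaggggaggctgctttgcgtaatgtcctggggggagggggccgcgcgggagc
PDGFA: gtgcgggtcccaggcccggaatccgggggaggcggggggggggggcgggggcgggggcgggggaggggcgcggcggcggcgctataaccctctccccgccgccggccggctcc
The full windows of 250 bases were 71.6% G and C for HIVEP2, 81.6% for PDGFA and 62.4% for CD44. On either strand, none of the 3 windows held the NR4A element AAAGGTCA, which 1.05% of 35116 RefSeq promoter windows hold, or the kB-like letters (GGG and TTCC with any 3 bases between them), which 5.67% hold. The AP-1 letters TGANTCA (6.57%) and the CRE letters TGACGTCA (1.65%) were also not found, so no letters are in capitals. These results concern only those letters in those windows.

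The libraries held 16171161 to 23929138 counts, with a median of 19639071. In the libraries with LPS, NR4A2 lay between 17.9 and 32.0 CPM (counts scaled to the size of the library) in shNR4A2 cells against 56.4 to 84.5 CPM in shNT cells. NR4A3 lay between 25.7 and 38.8 CPM in shNR4A3 cells against 57.6 to 73.8 CPM in shNT cells. Both labels thus matched their gene with LPS. Without LPS, NR4A2 was also lower in shNR4A2 than in shNT cells at both CO2 levels, without overlap. Basal NR4A3 at 5% CO2 was at 0.05 to 0.27 CPM in shNR4A3 cells against 0.78 to 1.15 CPM in shNT cells. At 10% CO2 it was at 0.31 to 0.37 CPM against 0.30 to 0.63 CPM, with overlap, so the knockdown was not seen there. The monocyte markers SPI1 (median 395 CPM), LYZ (286 CPM) and CSF1R (143 CPM) were well above the 15 markers of T, B, epithelial, fibroblast and erythroid cells, which together summed to between 3.93 and 8.02 CPM. CD68 (median 1.98 CPM) and MPO (4.30 CPM) were low. The share of counts from mitochondrially encoded genes was 1.05% to 2.19% at 5% CO2 and 1.54% to 4.15% at 10% CO2, and its part in the CO2 responses below was not tested. The study describes the replicates as individual experiments, and the p-values measure the spread between their libraries. In bulk RNA, a change in the share of cells that express a gene and a change of its RNA per cell cannot be told apart.

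HIVEP2 was counted 216 to 4147 times per library, PDGFA 61 to 1765 times and CD44 1444 to 14212 times. All 3 were highest in shNR4A3 cells at 10% CO2 with LPS. The lowest mean was in shNR4A2 cells at 10% CO2 without LPS for HIVEP2, and in shNT cells at 10% CO2 without LPS for PDGFA and CD44. Highest and lowest condition means differed 14.4-fold for HIVEP2, 23.3-fold for PDGFA and 9.01-fold for CD44. Levels between genes were compared per length, as TPM, which scales counts to the exon length of each gene and to the library. The condition means ran from 29.5 to 225 TPM for CD44, from 5.83 to 68.9 TPM for HIVEP2 and from 2.99 to 59.4 TPM for PDGFA. CD44 shares 84 exon bases with CD44-AS1, an antisense RNA counted 0 to 115 times per library. Whether strand was used in counting is not given in the sources used here, so reads from these bases cannot be told apart. HIVEP2 shares 254 exon bases with an antisense gene that had 0 counts in all libraries.

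**Figure D1:**
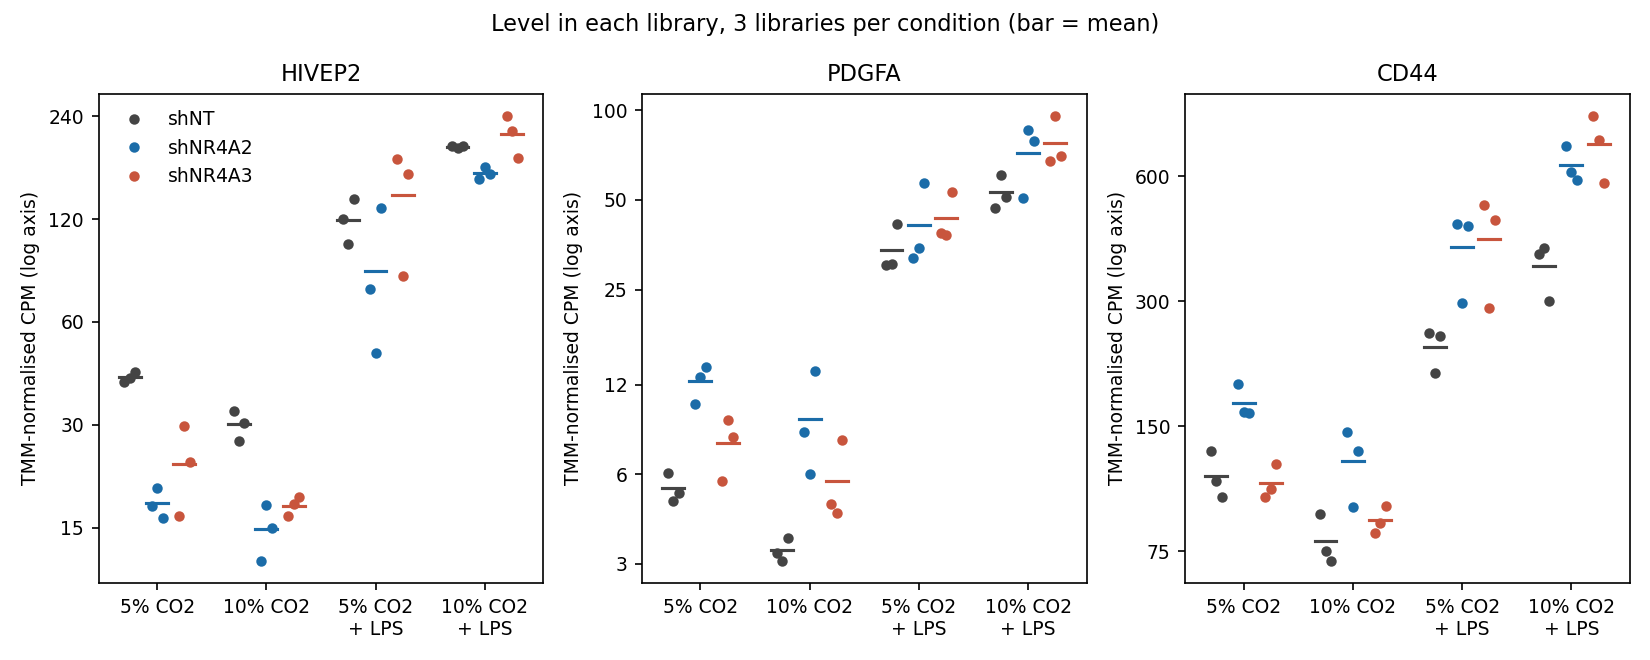
Level of each gene in all 36 libraries, as CPM scaled with TMM on a log axis, by CO2 level and LPS; points are libraries, bars are means of 3 libraries and colours are cell lines. For all 3 genes in all 3 lines the mean at 10% CO2 is the lower without LPS and the higher with LPS.

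In shNT cells, which chose the genes, HIVEP2 was at 40.0, 41.2 and 43.0 CPM at 5% CO2 and at 33.01, 27.0 and 30.3 CPM at 10% CO2 in the basal state. With LPS it was at 119.9, 102 and 137 CPM at 5% CO2 and at 196, 193 and 196 CPM at 10% CO2. PDGFA was at 6.06, 4.87 and 5.20 CPM at 5% CO2 and at 3.26, 3.07 and 3.65 CPM at 10% CO2 in the basal state. For both genes 10% CO2 was thus the lower group without LPS and the higher group with it. PDGFA with LPS was at 30.1, 30.4 and 41.6 CPM at 5% CO2 and at 47.1, 60.5 and 51.2 CPM at 10% CO2. CD44 was at 130.5, 111 and 101 CPM at 5% CO2 and at 92.4, 75.01 and 71.1 CPM at 10% CO2 in the basal state. With LPS CD44 was at 251, 201 and 247 CPM at 5% CO2 and at 389, 404 and 300.01 CPM at 10% CO2.

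No gene's shNT libraries overlapped between the CO2 levels in either state, with 10% CO2 the lower without LPS, as for 9.67% of the 17720 genes tested, and the higher with LPS, as for 15.3%. The log2 fold changes at 10% against 5% CO2 were −0.45 (SE 0.11) for HIVEP2, −0.69 (SE 0.18) for PDGFA and −0.52 (SE 0.12) for CD44 in the basal state. With LPS they were 0.71 (SE 0.10), 0.64 (SE 0.14) and 0.65 (SE 0.12). The interaction is the log2 CO2 response with LPS minus that without it. In shNT cells it was 1.17 (SE 0.14) for HIVEP2, 1.33 (SE 0.22) for PDGFA and 1.16 (SE 0.18) for CD44, which ranked 1, 2 and 3 by p among the genes tested. In all, 0.0226% of genes passed the threshold. Just inside it was also STARD4, at 0.91 (SE 0.15), and just outside it CDK6, at 0.77 (SE 0.14).

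In the basal state of the knockdown lines, the 3 genes were lower on average at 10% CO2 than at 5% CO2. None passed the main test, which used no replicate block. CD44 was the only one of the 3 whose libraries did not overlap. In shNR4A2 cells it was at 189, 162 and 162 CPM at 5% CO2 and at 145, 95.7 and 130.5 CPM at 10% CO2, while shNR4A3 cells had 101, 106 and 122 CPM at 5% CO2 and at 83.0, 87.6 and 96.6 CPM at 10% CO2. In both lines every CD44 library at 10% CO2 was below every library at 5% CO2. Such a separation downwards was found for 7.35% of genes in shNR4A2 cells and 11.1% in shNR4A3 cells.

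The CD44 response in the basal state was −0.46 on the log2 scale in shNR4A2 cells (SE 0.14; edgeR quasi-likelihood test, unadjusted p = 0.00377, adjusted p = 0.359) and −0.29 in shNR4A3 cells (SE 0.09; unadjusted p = 0.00483, adjusted p = 0.108). Without replicate 2 at 10% CO2, the shNR4A2 value was −0.31. Adjusted p-values are those of Benjamini and Hochberg over all 17720 genes, and a gene is called when its value is under 0.05. Few genes at all were called, 0.0113% in shNR4A2 cells and 1.13% in shNR4A3 cells, where the 200 genes became 0 without replicate 2 at 10% CO2. Only the basal shNR4A2 libraries met the rule, given below, for libraries with the same replicate number varying together. With the number as a block, CD44 was called there (log2 fold change −0.48, adjusted p = 0.0138), as were 361 genes in all.

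HIVEP2 in the basal state was at 17.4, 19.6 and 16.0 CPM at 5% CO2 and at 11.99, 17.5 and 15.01 CPM at 10% CO2 in shNR4A2 cells. In shNR4A3 cells it was at 16.3, 29.8 and 23.3 CPM and at 16.2, 17.6 and 18.4 CPM. The groups overlapped in both lines, and the log2 fold changes were −0.25 (SE 0.16) and −0.39 (SE 0.18), with adjusted p = 0.751 and adjusted p = 0.300 (edgeR). Without replicate 1 of shNR4A3 cells at 5% CO2, the value in that line was −0.59 (adjusted p = 0.0251), and without replicate 2 of that condition it was −0.17. In shNR4A2 cells it was −0.38 without replicate 2 at 10% CO2 and −0.11 without replicate 1.

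PDGFA was at 10.4, 12.7 and 13.8 CPM at 5% CO2 and at 8.32, 6.004 and 13.3 CPM at 10% CO2 in basal shNR4A2 cells. In basal shNR4A3 cells it was at 5.71, 9.15 and 7.98 CPM and at 4.77, 4.46 and 7.84 CPM. Replicate 3 was the highest library at 10% CO2 in both lines, and the groups overlapped. The log2 fold changes were −0.40 (SE 0.23) and −0.41 (SE 0.23), with adjusted p = 0.708 and adjusted p = 0.398 (edgeR). Without replicate 3 at 10% CO2 they were −0.78 and −0.72, and without replicate 2 at 10% CO2 −0.17 and −0.25, and none of these was called.

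With LPS the 3 genes were higher on average at 10% CO2 than at 5% CO2 in both knockdown lines, and again none was called. HIVEP2 was at 75.1, 48.7 and 129 CPM at 5% CO2 and at 157, 170.3 and 163 CPM at 10% CO2 in shNR4A2 cells. The shNR4A3 libraries were at 179.9, 81.7 and 162 CPM at 5% CO2 and at 241, 217 and 182 CPM at 10% CO2. The groups did not overlap in either line. The spread was wide among the libraries at 5% CO2, where replicate 2 was the lowest in both lines.

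The HIVEP2 response with LPS was 0.95 (SE 0.33, 95% interval 0.16 to 1.75; edgeR adjusted p = 0.235) in shNR4A2 cells and 0.60 (SE 0.31, interval −0.19 to 1.38; adjusted p = 0.385) in shNR4A3 cells. Without replicate 3 of shNR4A2 cells at 5% CO2 with LPS, the highest library, it was 1.399 in that line (adjusted p = 0.00252). Without replicate 2 of shNR4A3 cells at 5% CO2 with LPS, the lowest library, it was 0.32 in that line (adjusted p = 0.190). Over replicates 1, 2 and 3 of that condition HIVEP2 stood at 127%, 57.8% and 115% of the condition mean, and the summed level of 7 LPS-induced cytokine and NF-kB feedback genes at 125%, 83.0% and 92.3%. In shNR4A2 cells at 5% CO2 with LPS the values were 88.9%, 57.7% and 153% for HIVEP2 and 129%, 87.2% and 83.8% for the 7 genes. The part of these library differences in the result was not tested.

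PDGFA with LPS was at 31.9, 34.4 and 57.1 CPM at 5% CO2 and at 50.9, 85.7 and 78.9 CPM at 10% CO2 in shNR4A2 cells. The shNR4A3 libraries had 38.6, 38.1 and 53.3 CPM at 5% CO2 and at 67.3, 95.7 and 70.04 CPM at 10% CO2. The groups overlapped by 1 library of each in shNR4A2 cells and not at all in shNR4A3 cells. The response was 0.80 (SE 0.28; edgeR adjusted p = 0.226) and 0.85 (SE 0.17; adjusted p = 0.0527). Without replicate 3 at 5% CO2 with LPS it was called in either line, at 1.11 (adjusted p = 0.0192) in shNR4A2 cells and 1.02 (adjusted p = 0.0228) in shNR4A3 cells. Without replicate 2 at 10% CO2 with LPS it was 0.66 and 0.67 and was not called.

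CD44 with LPS was at 460.3, 296 and 456 CPM at 5% CO2 and at 707, 614 and 588 CPM at 10% CO2 in shNR4A2 cells. For shNR4A3 the values were 512, 289 and 469.99 CPM at 5% CO2 and at 838, 735 and 577 CPM at 10% CO2. All libraries at 10% CO2 were above all at 5% CO2 in both lines. The response was 0.65 (SE 0.16; edgeR adjusted p = 0.0989) and 0.76 (SE 0.25; adjusted p = 0.180). Without replicate 3 of shNR4A2 cells at 5% CO2 with LPS, CD44 was called in that line, at 0.75 (adjusted p = 0.0321). Without replicate 2 at 5% CO2 with LPS, the CD44 response was 0.47 in shNR4A2 and 0.55 in shNR4A3 cells and was not called.

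With LPS, HIVEP2 and CD44 were separated upwards in shNR4A2 cells, as were 10.8% of genes, and all 3 in shNR4A3 cells, as were 12% of genes. Across all genes, 0.198% were called for the CO2 response with LPS in shNR4A2 cells and 2.13% in shNR4A3 cells. In the shNR4A2 comparison 35 genes were called, 1122 without replicate 3 at 5% CO2 with LPS and 0 without replicate 1 at 10% CO2 with LPS. In shNR4A3 cells 378 genes were called, and 1 without replicate 1 at 10% CO2 with LPS.

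**Figure D2:**
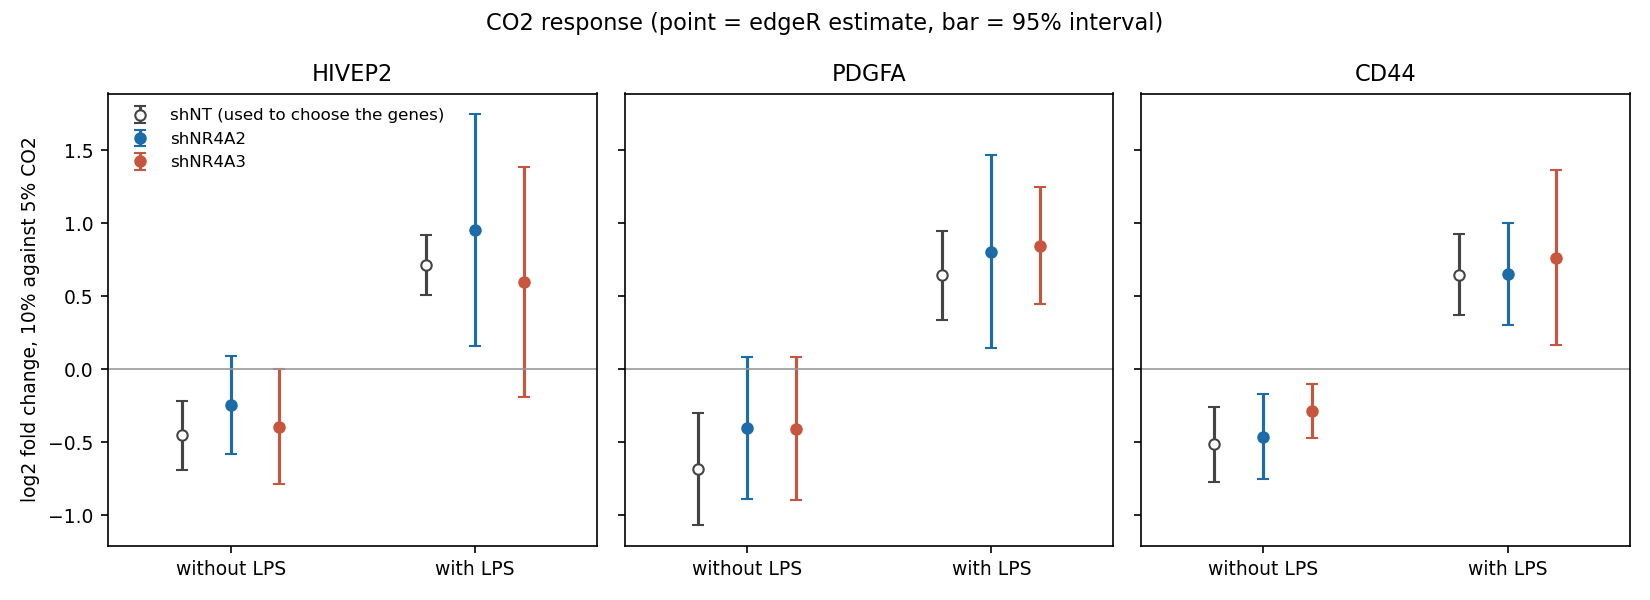
Log2 fold change at 10% against 5% CO2, without and with LPS, for each gene and cell line; points are edgeR estimates and bars are 95% intervals, and open points mark the shNT cells that chose the genes. All estimates lie below 0 without LPS and above 0 with it; the intervals of HIVEP2 and PDGFA without LPS reach 0 in both knockdown lines, as does that of HIVEP2 with LPS in shNR4A3 cells.

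The interaction itself was tested in each knockdown line, whose libraries the rule that chose the genes did not use. Earlier results of these data were known when the genes were chosen. It was above 0 for all 3 genes in both lines, with values of 0.99 to 1.26 and 95% intervals above 0. It was not called after adjustment over all 17720 genes tested. That adjustment was not limited to the 3 chosen genes, so the lack of a call does not show that the pattern was absent. HIVEP2 had an interaction of 1.19 (SE 0.39, 95% interval 0.33 to 2.06) in shNR4A2 cells, with an unadjusted p of 0.0113 (edgeR) and adjusted p = 0.876. In shNR4A3 cells it was 0.99 (SE 0.42, interval 0.05 to 1.94), with an unadjusted p of 0.0408 (edgeR) and adjusted p = 0.862. As ratios, the fold response to LPS was 2.29 times as large at 10% CO2 as at 5% CO2 in shNR4A2 cells and 1.99 times as large in shNR4A3 cells.

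PDGFA had an interaction of 1.20 (SE 0.43, interval 0.25 to 2.15) in shNR4A2 cells, with an unadjusted p of 0.0181 (edgeR) and adjusted p = 0.876. The shNR4A3 value was 1.26 (SE 0.35, interval 0.50 to 2.01), with an unadjusted p of 0.00373 and adjusted p = 0.831. CD44 had the smallest errors, at 1.11 (SE 0.24, interval 0.61 to 1.62) in shNR4A2 cells, with an unadjusted p of 0.000231 and adjusted p = 0.541. The shNR4A3 value was 1.06 (SE 0.28, interval 0.43 to 1.68), with an unadjusted p of 0.00358 and adjusted p = 0.831.

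No gene of the 17720 was called for the interaction in either knockdown line (0%). An unadjusted p under 0.05 in edgeR was found for 904 genes in shNR4A2 cells and 995 in shNR4A3 cells. That is close to the share expected from this threshold alone if no gene had an interaction. DESeq2 called 13 and 8 genes, CD44 among them in both lines (adjusted p = 0.0174 and adjusted p = 0.0494). The interactions of HIVEP2, PDGFA and CD44 lay between percentile 97.2 and percentile 98.3 of all genes in both lines, where the median gene was at −0.02 and −0.01. Without replicate 3 of shNR4A2 cells at 5% CO2 with LPS, HIVEP2 was called in that line, with an interaction of 1.65 (adjusted p = 0.00841). Without replicate 2 of that condition it was 0.91 and was not called. Without replicate 2 of shNR4A3 cells at 5% CO2 with LPS, the HIVEP2 interaction in shNR4A3 cells was 0.72 and was not called.

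An exact permutation test of the CO2 labels within each LPS state was added after the data were seen. It has 400 arrangements and a smallest two-sided p of 0.005, and its null is no CO2 response in either state. The 6 p-values, not adjusted for their number, were 0.015 for HIVEP2, 0.035 for PDGFA and 0.005 for CD44 in shNR4A2 cells, and 0.03, 0.02 and 0.005 in shNR4A3 cells. The value for CD44 is the smallest this test can give. It follows from the lack of overlap of the CD44 libraries in both states, given above, and is not separate support. The test was run for these 3 genes only, so the share of all genes with such p-values is not known.

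Averaged over both knockdown lines, the interaction was 1.09 (SE 0.31, 95% interval 0.45 to 1.74) for HIVEP2, 1.23 (SE 0.30, interval 0.59 to 1.86) for PDGFA and 1.08 (SE 0.20, interval 0.67 to 1.496) for CD44. The adjusted p-values (edgeR) were 0.184, 0.136 and 0.0509, so CD44 missed the threshold narrowly. Here 0.0395% of genes were called. CD44 was called under each of the 7 other settings tried, with adjusted p from 4.92e-05 to 0.0420, and when any of 8 libraries was left out. These were replicate 1 of shNR4A2 cells at 10% CO2, replicates 1 and 3 of shNR4A2 cells at 5% CO2 with LPS, replicate 1 of shNR4A3 cells at 5% CO2, all 3 of shNR4A3 cells at 5% CO2 with LPS, and replicate 3 of shNR4A3 cells at 10% CO2 with LPS. Without replicate 3 of shNR4A2 cells at 5% CO2 with LPS all 3 genes were called, with values of 1.32 for HIVEP2 (adjusted p = 0.0191), 1.38 for PDGFA (adjusted p = 0.0267) and 1.13 for CD44 (adjusted p = 0.0118), and 221 genes in all.

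Between the knockdown lines, the interaction in shNR4A3 cells minus that in shNR4A2 cells was −0.20 for HIVEP2 (95% interval −1.49 to 1.09), 0.06 for PDGFA (interval −1.21 to 1.33) and −0.06 for CD44 (interval −0.88 to 0.76). No gene was called for this difference in edgeR (0%), and 249 had an unadjusted p under 0.05. The intervals are wide enough to hold a difference as large as the interaction itself for HIVEP2 and PDGFA. The knockdown lines were not tested against the interaction in shNT cells, because those cells chose the genes.

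LPS raised the 3 genes in all lines at both CO2 levels, and every library with LPS was above every library without it at the same CO2 level. Such a rise without overlap was seen for 18.3% of genes at 5% CO2 and 21.3% at 10% CO2 in shNT cells, for 16.8% and 22% in shNR4A2 cells and for 19.4% and 24.5% in shNR4A3 cells. Averaged over both CO2 levels, the log2 response of HIVEP2 was 2.11 (SE 0.07) in shNT, 2.85 (SE 0.21) in shNR4A2 and 3.11 (SE 0.22) in shNR4A3 cells. PDGFA rose by 3.32 (SE 0.11), 2.34 (SE 0.22) and 3.14 (SE 0.18), and CD44 by 1.61 (SE 0.09), 1.80 (SE 0.12) and 2.48 (SE 0.15). All 9 responses were called, with the largest adjusted p at 4.43e-06 (edgeR, PDGFA in shNR4A2 cells), as were 19.7%, 19.4% and 22.6% of genes as higher in the 3 lines.

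The interaction can be read as an LPS response that was larger at 10% CO2, and in shNT cells this is a description. HIVEP2 rose with LPS by 1.53 at 5% CO2 and by 2.70 at 10% CO2 in shNT cells, by 2.26 and 3.45 in shNR4A2 cells and by 2.61 and 3.61 in shNR4A3 cells. PDGFA rose by 2.66 and 3.98, by 1.74 and 2.94, and by 2.51 and 3.77 in the same order. CD44 rose by 1.03 and 2.20, by 1.24 and 2.35, and by 1.95 and 3.00. By these estimates the LPS response differed in size between lines, and the differences are tested below. The step from 5% to 10% CO2, which is the interaction, was 0.99 to 1.26 in the knockdown lines and was not called. In shNT cells, where the genes were chosen for this step, it was 1.16 to 1.33.

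**Figure D3:**
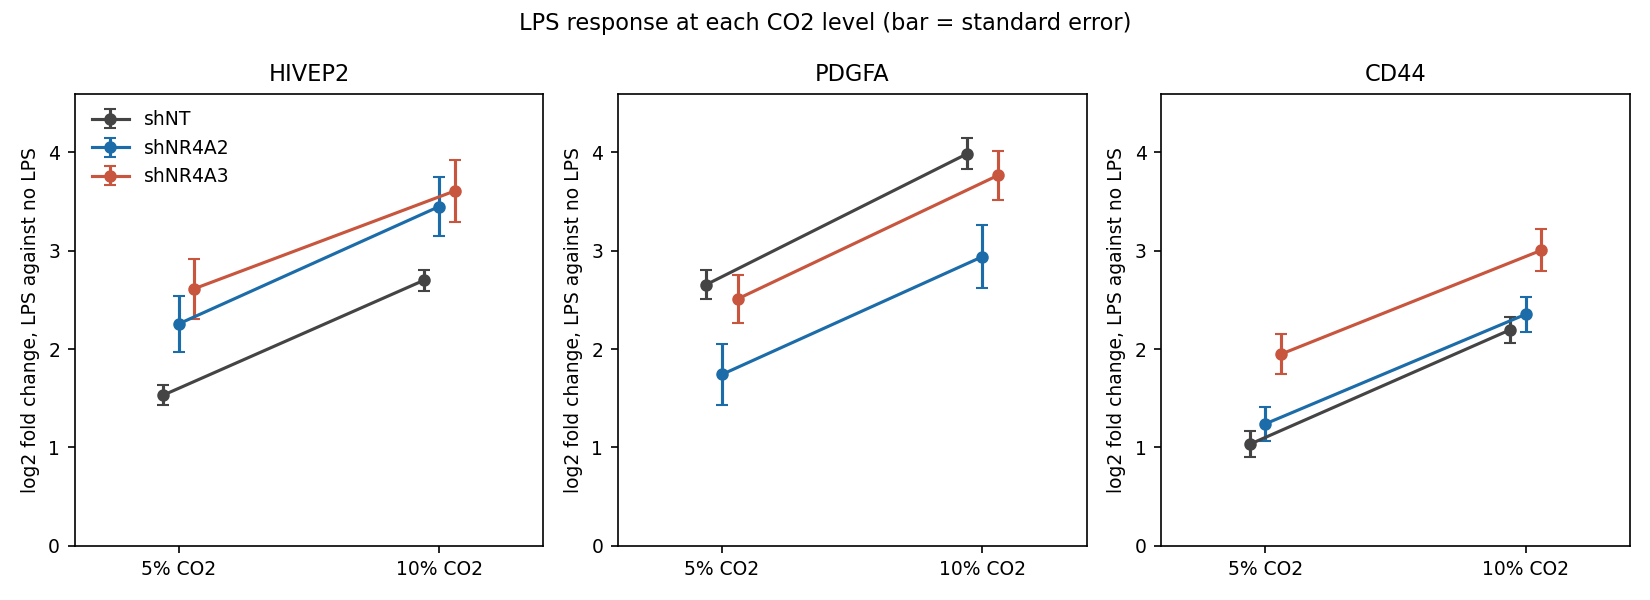
Log2 response to LPS at 5% and 10% CO2 for each gene; points are edgeR estimates, bars are standard errors and lines join the CO2 levels within a cell line. All 9 lines slope upwards, and their heights differ between cell lines. The steps are 0.99 to 1.26 in the knockdown lines and 1.16 to 1.33 in shNT cells, which chose the genes.

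The LPS response of each knockdown line was compared with that of shNT cells, and both comparisons share the shNT libraries. Those libraries also chose the genes by p, which can favour a small spread between them. The p-values here, of the shNT LPS responses and of the level comparisons below are therefore not free of that choice. CD44 responded more in shNR4A3 cells, by 0.87 on the log2 scale (SE 0.19, 95% interval 0.48 to 1.25; edgeR adjusted p = 0.0320), a call made as higher for 0.299% of genes. Leaving out 1 library at a time, the call was lost for 12 of the 36 libraries (differences of 0.79 to 0.86, adjusted p from 0.0527 to 0.0875). These were replicates 1 and 2 of shNR4A3 cells at 5% CO2, at 10% CO2 and at 10% CO2 with LPS, replicates 1 and 3 of shNR4A3 cells at 5% CO2 with LPS, replicate 1 of shNT cells at 5% CO2 and at 10% CO2, and replicate 2 at 5% CO2 and replicate 3 at 10% CO2 of shNT cells with LPS. HIVEP2 differed by 1.00 (SE 0.26, interval 0.47 to 1.53; adjusted p = 0.0889) in shNR4A3 cells and was not called. It was called without replicate 2 of shNR4A3 cells at 5% CO2 with LPS (1.14, adjusted p = 0.00732) or without replicate 2 or 3 of shNR4A2 cells in that condition (adjusted p = 0.0276 and adjusted p = 0.0236), whose libraries share the estimate of spread. In shNR4A2 cells none of the 3 was called, where 0.237% of genes were. The differences were 0.74 (SE 0.26, adjusted p = 0.493) for HIVEP2, −0.97 (SE 0.27, adjusted p = 0.215) for PDGFA and 0.19 (SE 0.19, adjusted p = 1.0) for CD44. For PDGFA in shNR4A3 cells it was −0.18 (SE 0.28, adjusted p = 0.926).

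Averaged over the 4 conditions, shNR4A2 cells had less HIVEP2 than shNT cells (log2 difference −0.75, SE 0.13, adjusted p = 3.69e-05) and more PDGFA (0.85, SE 0.14, adjusted p = 1.39e-05) and CD44 (0.71, SE 0.09, adjusted p = 6.82e-07). In the same edgeR test 20.7% of genes were called lower and 20.2% higher. In shNR4A3 cells PDGFA (0.54, SE 0.14, adjusted p = 0.00375) and CD44 (0.49, SE 0.09, adjusted p = 0.000196) were also higher, as were 16% of genes. HIVEP2 was at −0.32 (SE 0.13, adjusted p = 0.0607), and when any of 5 libraries was left out its adjusted p was between 0.0216 and 0.0495. These were replicates 2 and 3 of shNR4A2 cells at 5% CO2 with LPS, replicate 1 of shNR4A3 cells at 5% CO2 with LPS, replicate 2 of shNR4A3 cells at 5% CO2, and replicate 2 of shNT cells at 5% CO2 with LPS. With 1 line per hairpin, a difference made by the knockdown and one between the lines cannot be told apart.

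HIVEP2 was below shNT cells without overlap in both knockdown lines in the basal state at either CO2 level. With LPS it was so only in shNR4A2 cells at 10% CO2. Downwards separations of this kind were found for 12.6% of genes in shNR4A2 and 11.8% in shNR4A3 cells, at either basal CO2 level. In the condition with LPS 18.6% of genes were separated so. In shNR4A3 cells with LPS the HIVEP2 means were above those of shNT cells, with overlap. They were 141 against 120 CPM at 5% CO2 and 213 against 195 CPM at 10% CO2. In the order of condition means of HIVEP2, the conditions with LPS ended without overlap between shNR4A2 cells at 5% CO2 with LPS (mean 84.4 ± 41.2 CPM, SD, n = 3) and shNT cells at 5% CO2 without it (41.4 ± 1.48 CPM). Among the basal conditions of both knockdown lines, with the lowest means (14.8 to 23.1 CPM), neighbours overlapped.

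CD44 was above shNT cells without overlap in shNR4A2 cells in all 4 conditions and in shNR4A3 cells with LPS. Upwards separations were found for 12.3% of genes at 5% CO2, 12.8% at 10% CO2, 13.1% at 5% CO2 with LPS and 17.7% at 10% CO2 with LPS in shNR4A2 cells, and for 12.7% and 15.6% with LPS in shNR4A3 cells. PDGFA was above shNT cells without overlap in basal shNR4A2 cells at both CO2 levels, and in shNR4A3 cells at 10% CO2 without LPS, as were 12% of genes, and with it. The highest mean of CD44, 717 ± 132 CPM (SD, n = 3), overlapped with the next, 637 ± 62.5 CPM in shNR4A2 cells at 10% CO2 with LPS. The latter CD44 mean was separated from 424 ± 119 CPM in shNR4A3 cells at 5% CO2 with LPS. For PDGFA, neighbours overlapped throughout the 6 conditions with LPS, from 34.0 ± 6.52 CPM to 77.7 ± 15.7 CPM, and the basal conditions began below them at 12.3 ± 1.75 CPM.

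Genes that work with HIVEP2, PDGFA and CD44 were followed by counts and medians. Of 13 other kB-site factors and their regulators, all tested, 12 rose with LPS in shNT and shNR4A2 cells and 13 in shNR4A3 cells, with median log2 responses of 3.45, 3.78 and 3.91 against −0.02, −0.02 and −0.01 for all genes. Of all genes tested, 19.7%, 19.4% and 22.6% were called higher with LPS in these lines, and 22.4%, 23.1% and 26.3% lower. None of the 13 was called for the interaction in either line, and the median over both knockdown lines was 0.31 against −0.01 for all genes. HIVEP1, a paralogue of HIVEP2 that binds like sites, had an interaction of 0.80 (SE 0.18; edgeR adjusted p = 0.0958). BCL3, a nuclear IkB protein, was at 0.65 (SE 0.15, adjusted p = 0.0958) and RELB, a subunit of the noncanonical NF-kB dimer, at 0.65 (SE 0.17, adjusted p = 0.138). HIVEP3, another paralogue, was at 0.11 (SE 0.21) and NFKBIZ, a further nuclear IkB protein, at −0.02 (SE 0.15).

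In basal shNR4A3 cells, 3 of these 13 genes fell at 10% CO2, where 1.13% of all genes were called in either direction and none without replicate 2 at 10% CO2. They were BCL3 (log2 fold change −0.72, SE 0.13, edgeR adjusted p = 0.0189), RELB (−0.59, SE 0.11, adjusted p = 0.0259) and NFKBIA (−0.40, SE 0.08, adjusted p = 0.0327), which encodes the IkB-alpha inhibitor. HIVEP1 was at −0.37 (SE 0.14, adjusted p = 0.181). None of the 13 was called for the other CO2 responses of the knockdown lines. Against shNT cells, 6 of the 13 were higher in shNR4A2 and 4 in shNR4A3 cells and none was lower. Over all genes, 20.2% were called higher and 20.7% lower in shNR4A2 cells, and 16% higher and 16.9% lower in shNR4A3 cells. HIVEP1 was among the higher in both lines (0.29 and 0.30), where HIVEP2 was at −0.75 and −0.32 as averages over the 4 conditions.

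The PDGF system comprised 14 other ligands, receptors, processing enzymes and binding proteins, of which SPARC did not pass the filter on low counts. None of the 13 tested was called for the interaction or for a CO2 response in either knockdown line. The median interaction was −0.21 in shNR4A2 and −0.01 in shNR4A3 cells. With LPS 1 rose and 2 fell in shNT cells, 3 rose and 3 fell in shNR4A2 cells, and 2 rose and 3 fell in shNR4A3 cells, beside 19.7%, 19.4% and 22.6% of all genes called higher and 22.4%, 23.1% and 26.3% lower. PDGFB, the B chain, rose by 3.54, 4.67 and 4.31 in the order shNT, shNR4A2 and shNR4A3. FURIN, a convertase that cuts the PDGF precursor, fell by 0.31, 0.38 and 0.41, and NRP1, a co-receptor, fell by 0.56, 0.74 and 0.65. PDGFRA, the receptor for the A chain, had an interaction of 1.75 (SE 0.50, edgeR adjusted p = 0.171) over both knockdown lines at condition means of only 0.24 to 1.47 CPM. Against shNT cells 6 of the 13 were higher and 1 lower in each knockdown line, beside 20.2% and 16% of all genes called higher and 20.7% and 16.9% lower.

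The CD44 and hyaluronan system comprised 26 other genes, of which 23 were tested. HAS1, LYVE1 and ESRP2 did not pass the filter. None was called for the interaction, with medians of −0.04 in shNR4A2 and 0.02 in shNR4A3 cells. With LPS 10 rose and 1 fell in shNT cells, and 9 rose and 2 fell in each knockdown line, beside 19.7%, 19.4% and 22.6% of all genes called higher and 22.4%, 23.1% and 26.3% lower in the 3 lines. TNFAIP6, which links hyaluronan to other matrix proteins, rose by 9.31, 9.97 and 9.55 in the order shNT, shNR4A2 and shNR4A3. The hyaluronan synthase HAS2 rose by 4.25, 4.08 and 3.31 and HAS3 by 2.96, 2.92 and 2.78. HYAL2, a hyaluronidase, fell by 0.28, 0.48 and 0.55. MMP14, a membrane protease that can cleave CD44, fell by 0.50 (SE 0.09, edgeR adjusted p = 0.0257) at 10% CO2 in basal shNR4A3 cells and was the only one of the 23 called for a CO2 response in a knockdown line. Neither it nor any other gene was called there without replicate 2 at 10% CO2. Against shNT cells, 4 of the 23 were higher and 4 lower in shNR4A2 cells, and 6 were higher and 3 lower in shNR4A3 cells. Over all genes 20.2% were higher and 20.7% lower in the former and 16% and 16.9% in the latter, so in shNR4A2 cells the shares of the list were near those of all genes.

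The 7 LPS-induced genes TNF, IL1B, CXCL8, CCL3, CCL4, NFKBIA and TNFAIP3, of which NFKBIA and TNFAIP3 are also among the kB-site genes, all rose with LPS in each line. None was called for the interaction, and the median over both knockdown lines was 0.25. TNF was at 0.98 (SE 0.27, edgeR adjusted p = 0.171). At 10% against 5% CO2 with LPS the median of the 7 was −0.09 in shNR4A2 and −0.00 in shNR4A3 cells, where HIVEP2, PDGFA and CD44 were between 0.60 and 0.95. Without LPS the median of the 7 was −0.39 in shNR4A2 and −0.26 in shNR4A3 cells. There HIVEP2, PDGFA and CD44 were between −0.46 and −0.25 in shNR4A2 and between −0.41 and −0.29 in shNR4A3 cells. A lower basal level at 10% CO2 was thus not particular to them.

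**Figure D4:**
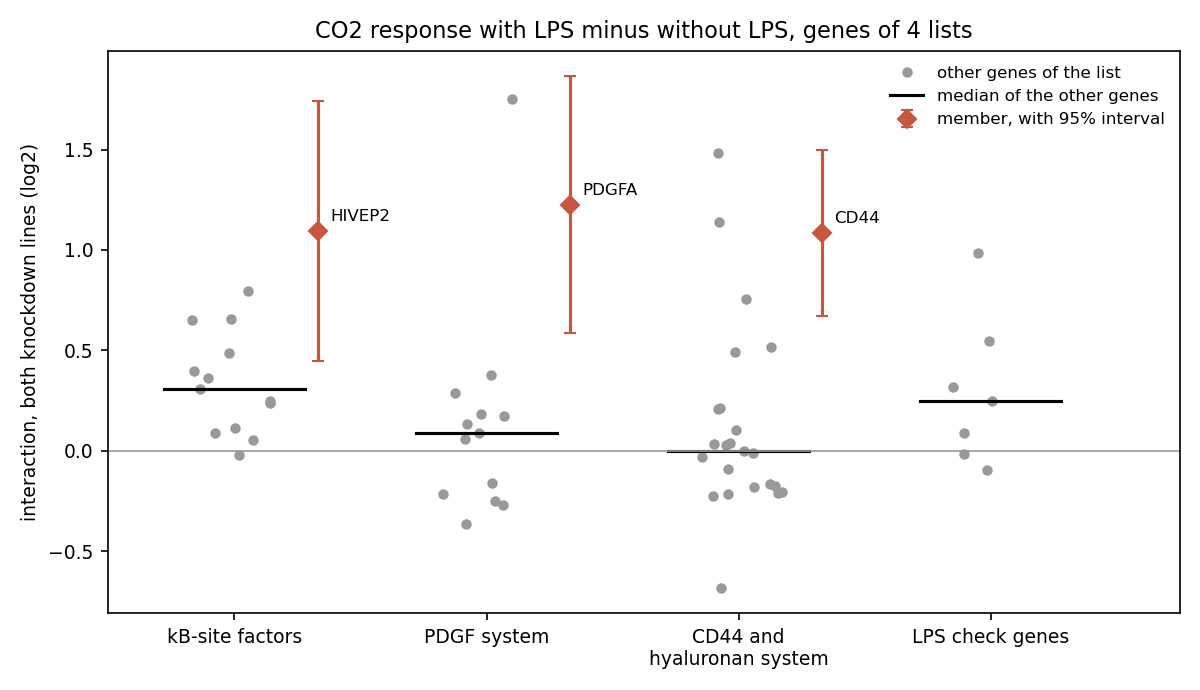
Interaction (log2 CO2 response with LPS minus that without) averaged over both knockdown lines; grey points are the other genes of each list with their spread along the x axis drawn only for legibility, black bars their medians, and diamonds HIVEP2, PDGFA and CD44 with 95% intervals. The medians are 0.31 for kB-site factors, 0.09 for the PDGF system, −0.00 for the CD44 and hyaluronan system and 0.25 for the LPS-induced genes, and HIVEP2, PDGFA and CD44 are at 1.09, 1.23 and 1.08.

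Across the 12 condition means, the log2 levels of PDGFA and CD44 had a Pearson correlation of 0.976, those of HIVEP2 and PDGFA 0.877 and those of HIVEP2 and CD44 0.871. The conditions share their cell lines and LPS treatment, all 3 genes rise with LPS, and the shNT conditions among them chose the genes. These values are therefore a description. Among the other 17719 genes, the patterns most like that of HIVEP2 were those of ANKRD18A (0.994), TM9SF4 (0.992) and OLIG1 (0.988). For PDGFA they included TOM1 (0.989) and DEPP1 (0.986). For CD44 they were STAT5A (0.993), AFTPH-DT (0.991) and TOM1 (0.989). TOM1 was thus in the list of both PDGFA and CD44.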

How the data were processed

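RNA of THP-1 cells was sequenced as paired polyadenylated libraries, 36 in all. For trimming the authors used Trimmomatic 0.36, for alignment STAR 2.5.2b (GRCh38), and featureCounts of Subread 1.5.2 for counting per gene. The deposited values are raw counts for 57500 genes, not normalised. The annotation release and strand setting are not given in the sources used here. Symbols matched 98.1% of gene IDs.

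The counts were tested with edgeR 4.0.16 in R 4.3.3 by the quasi-likelihood F test with robust dispersions and TMM scaling. Genes passed a filter with a minimum count of 10 and a minimum total of 15 over the 12 conditions, which left 17720. Comparisons within a knockdown line used its own libraries, and comparisons with shNT cells used all 36. P-values were adjusted by Benjamini and Hochberg over all genes tested, with a threshold of 0.05. The standard error is the log2 fold change divided by the square root of F. CPM values are scaled with TMM, and TPM values use the exon lengths of the files.

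The scripts were tested on simulated data. HIVEP2, PDGFA and CD44, and the lists, were chosen with earlier results of these data known. The genes named are these 3, members of the fixed lists by role, and the 3 genes most correlated with each. Alternatives were DESeq2 1.42.0, other scalings and filters, 1 fit to all libraries, a replicate block and leaving out each library. The permutation test was added after the data were seen. Libraries with the same replicate number were judged paired where every correlation of their deviations was over 0.1. This held only for basal shNR4A2 cells (lowest 0.19). The main fit used no block there either, and the fit with the block is given as an alternative. Between replicates, chi-square per degree of freedom was 6.68 to 29.9, so none was counted as 1 sample with another. One gene that the rule for like patterns named is not reported here.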

Additional observations from a re-analysis of the deposited data

Results flagged for a closer look

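The LPS response of CD44 differed between shNR4A3 and shNT cells. Averaged over both CO2 levels it was 0.87 larger on the log2 scale in shNR4A3 cells (SE 0.19, edgeR adjusted p = 0.0320), with responses of 2.48 and 1.61. It stood out because a test of the difference itself passed the threshold. The call was lost when any of 12 of the 36 libraries was left out, and with no filter (edgeR adjusted p = 0.0602). With 1 line per hairpin, an effect of the knockdown and a difference between the lines cannot be told apart. The shNT libraries of that test also chose the genes. Every CD44 library of shNR4A3 cells with LPS was above every shNT library at the same CO2 level, and without LPS the lines overlapped at both CO2 levels.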

How the results depend on the processing

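Of the values recomputed with all libraries in place and an adjusted p, 268 kept their direction and side of the threshold, 34 gained a call, 1 lost it and none turned. With 1 library left out, 772 kept both, 24 gained a call, 12 lost it and 20 turned. All LPS responses kept their call. The cause of the changes was not tested. With DESeq2 the interaction was called for CD44 in shNR4A2 (1.12, adjusted p = 0.0174) and shNR4A3 cells (1.07, 0.0494), and over both lines for HIVEP2 (1.11, 0.0288), PDGFA (1.25, 0.00359) and CD44 (1.10, 4.92e-05). DESeq2 also called the CO2 response with LPS of PDGFA (0.80) and CD44 (0.65) in shNR4A2 cells and of PDGFA (0.84) in shNR4A3 cells, and the LPS difference from shNT cells of PDGFA in shNR4A2 (−0.97) and HIVEP2 in shNR4A3 cells (1.01). With 1 fit to all 36 libraries, calls were gained over both lines for PDGFA (1.23) and CD44 (1.09), with LPS in shNR4A2 cells for HIVEP2 (0.95) and CD44 (0.65), and in shNR4A3 cells for PDGFA (0.84) and CD44 (0.76). With no filter, calls were gained for the CD44 interaction in shNR4A2 cells (1.11) and over both lines (1.08), with LPS for PDGFA (0.79) and CD44 (0.64) in shNR4A2 and PDGFA (0.83) in shNR4A3 cells, while the CD44 LPS difference in shNR4A3 cells (0.87, adjusted p = 0.0602) was lost. Over both lines CD44 was also called with 1 CPM in every library of a condition (1.09), library size only (1.07) and RLE size factors (1.10).

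With the replicate number as a block, calls were gained for the interaction of CD44 in shNR4A2 cells (1.15) and over both lines (1.11), of PDGFA over both lines (1.27), for the CO2 response of CD44 in basal shNR4A2 (−0.48) and shNR4A3 cells (−0.29), of PDGFA (0.82) and CD44 (0.68) with LPS in shNR4A2 cells, and for the LPS difference of PDGFA in shNR4A2 cells (−0.97). The block changed no other call. Outside basal shNR4A2 cells the lowest correlation of same-numbered libraries was between −0.17 and 0.06. The number thus did not meet the rule for a pairing there. All such correlations within shNR4A3 cells were above 0 (0.03 to 0.28), as were those in shNR4A2 cells with LPS (0.06 to 0.24). Within shNT cells they ran from −0.17 to 0.25. A weaker pairing is therefore not excluded. The permutation test gave interactions, on log2 CPM, of 1.33, 1.29 and 1.16 for HIVEP2, PDGFA and CD44 in shNR4A2 cells and 1.03, 1.28 and 1.08 in shNR4A3 cells. The level of HIVEP2 in shNR4A3 cells was also called by DESeq2 (−0.31) and with library size only (−0.35).

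Leaving out 1 library at a time, the interaction in shNR4A2 cells ranged from 0.91 to 1.65 for HIVEP2. There it ranged from 0.96 to 1.58 for PDGFA and 0.93 to 1.25 for CD44. In shNR4A3 cells the ranges were 0.72 to 1.20 for HIVEP2, 1.08 to 1.56 for PDGFA and 0.85 to 1.21 for CD44, and none was called. Over both lines they were 0.95 to 1.32 for HIVEP2, 1.11 to 1.42 for PDGFA and 0.98 to 1.16 for CD44. The difference of the interaction between the knockdown lines, called in no refit, ranged from −0.65 to 0.082 for HIVEP2, −0.33 to 0.37 for PDGFA and −0.27 to 0.12 for CD44, and holds all 20 values that turned. The CO2 response with LPS in shNR4A2 cells ranged from 0.67 to 1.399 for HIVEP2, 0.66 to 1.11 for PDGFA and 0.47 to 0.76 for CD44, and that of PDGFA in shNR4A3 cells from 0.67 to 1.02. HIVEP2 in basal shNR4A3 cells ranged from −0.59 to −0.17. The LPS difference of shNR4A3 cells ranged from 0.89 to 1.14 for HIVEP2 and 0.79 to 0.97 for CD44.

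Counts of genes called over all genes moved by more than 1.5 times. For the interaction in shNR4A2 cells 0 became 1 in the fit to all libraries, 13 with DESeq2, 71 with no filter and 4 with the block. In shNR4A3 cells 0 became 1, 8, 89 and 5, and over both lines 7 became 60, 172, 286 and 235, and 12 with RLE. For the CO2 response in basal shNR4A2 cells 2 became 58, 43, 87 and 361, and 0 with 1 CPM or library size only, and with LPS 35 became 1009, 600, 1112 and 619, and 0 with library size only. In shNR4A3 cells the counts with LPS lay between 167 and 1402 against 378, and those of the basal state between 107 and 1073 against 200. The LPS difference moved from 42 to between 83 and 111 in shNR4A2 and from 67 to between 152 and 212 in shNR4A3 cells. The median LPS response of all genes shifted by −0.19 to −0.22 with library size only, by 0.18 to 0.19 with DESeq2 and by up to 0.12 with no filter.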
